A study of Mus musculus with 9 samples.

Results

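The genes that encode the proteins of the cytosolic ribosome were examined in regenerating mouse liver. They were taken from the platform annotation by symbol: Rpl or Rps followed by a digit, together with Rpsa, Rplp0, Rplp1 and Rplp2, leaving out S6 kinases, pseudogene symbols and Rps19bp1. The array held 95 such probes for 64 genes. A gene was tested if a probe had a detection p under 0.05 on at least 4 of 9 arrays, which held for 74 probes and 55 genes, among 11559 features tested in all. Of these 55 genes, 33 have symbols of the large subunit (Rpl and Rplp) and 22 have symbols of the small subunit (Rps). Subunit follows the symbol throughout, so Rpl7l1, a factor of large subunit assembly, is counted with the large subunit.

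Each cytosolic ribosome is built from 1 copy of nearly every one of these proteins, which join ribosomal RNA in the nucleolus. Their messenger RNAs mostly begin with a C followed by a run of pyrimidines, the 5′ terminal oligopyrimidine (TOP) tract, through which the kinase complex mTORC1 controls their translation. Partial hepatectomy is the surgical removal of liver lobes, after which the remnant grows back, and hepatocytes make ribosomes before they divide. In mice, loss of Rps6 from adult liver blocks hepatocyte proliferation after this operation.

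Whole liver was collected 12 h after partial hepatectomy from 9 mice of strain C57BL/6, with 1 Illumina bead array per liver. The 4 control livers were labelled wild type with the treatment "Control". The 5 KO livers were labelled LTRβ-/-, read here as lacking the lymphotoxin β receptor (gene Ltbr), and these mice received etanercept, a TNF receptor fusion protein, 24 h before surgery. Genotype and drug therefore cannot be told apart, the pretreatment of the controls, the ages and the kind of deletion are not given in the sources used here, and all 9 livers had been operated on. Surgery day was labelled 1 to 5. Days 5, 2, 3 and 1 belong to controls 1 to 4 and days 1, 4, 5, 2 and 4 to KO 1 to KO 5. P-values measure the spread between these livers. In whole tissue, fewer cells of a type and less RNA per cell cannot be told apart.

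The mean bead signal lay between 336 and 438 on 8 arrays and was 143 on KO 4, which also had the fewest detected probes, 9493 against 13926 to 16186. Values that KO 4 turns or moves most are also given without it. The probe for Ltbr had a log2 signal of 6.41 to 6.97 in the controls and 4.87 to 6.77 in the KO livers. These ranges overlap, and whether the probe lies in the deleted part is not given in the sources used here, so it does not check the labels. All 15 hepatocyte markers were tested and were detected on every array.

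The start of the transcript is the feature by which most of these messenger RNAs are known to be controlled, so the bases around it are shown for members that return below. RefSeq promoter windows (build GRCm38.p6, 250 bases before to 50 after each start) were matched by gene ID to 53 of the 64 genes and to 46 of the 55 tested. Each line holds 20 bases before the start and 20 from the start on, in the direction of the gene, with the pyrimidine run at the start in capitals.
Rps6, chr4:86857348-86857387, minus strand: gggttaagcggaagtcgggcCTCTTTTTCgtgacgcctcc
Rps10, chr17:27635225-27635264, minus strand: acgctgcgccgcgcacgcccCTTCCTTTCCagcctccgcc
Rps15a, chr7:118116128-118116167, minus strand: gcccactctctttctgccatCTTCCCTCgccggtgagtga
Rpl28, chr7:4792945-4792984, plus strand: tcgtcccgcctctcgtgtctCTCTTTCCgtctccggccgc
Rpl35, chr2:39005112-39005151, minus strand: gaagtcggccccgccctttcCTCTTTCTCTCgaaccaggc
Rpl38, chr11:114668560-114668599, plus strand: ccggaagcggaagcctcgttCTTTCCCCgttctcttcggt
Rplp2, chr7:141447631-141447670, plus strand: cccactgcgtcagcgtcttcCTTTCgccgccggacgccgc
Rpl27a, chr7:109519175-109519214, plus strand: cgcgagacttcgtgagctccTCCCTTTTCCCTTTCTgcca
Rplp0, chr5:115559447-115559486, plus strand: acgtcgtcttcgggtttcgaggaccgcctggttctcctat
Rps16, chr7:28350669-28350708, plus strand: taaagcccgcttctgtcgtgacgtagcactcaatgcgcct

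The first 7 of these starts have a C and then at least 4 pyrimidines. Rpl27a has the longest run shown, 16 bases, but opens with T, and at the RefSeq starts of Rplp0 and Rps16 there is none. Such a start was found in 9 of the 63 windows of members (14.3%) and in 2.51% of all 32851 windows. Starts here are those of the RefSeq models, so a missing run says only that these letters are not at that position. The letters CCGGAAG, the core motif of ETS factors such as GABP, were present on either strand in 38.1% of member windows and 8.86% of all windows. AAGATGG, the YY1 core, was found in 12.7% against 6.34%, the MYC E-box CACGTG in 12.7% against 7.15%, and TATAAA in 9.52% against 13.6%. Several windows can belong to 1 gene, and no test was made of these shares. The 8 tested members with a pyrimidine start had a median log2 difference between the groups of -0.015, and the 38 with a window and no such start had one of -0.023.

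The comparison of the groups asks whether livers without lymphotoxin β receptor signalling and with TNF blocked differ from control livers in these genes during early regrowth. No ribosomal protein gene passed the test. With 1 probe a gene, the largest difference in size was 0.37 log2 units (Rplp0). Over all tested probes of the members, differences ran from -0.42 to 0.48. The lowest adjusted p of a member was 0.931 (limma with Benjamini-Hochberg adjustment over all features). At an adjusted p under 0.05, 0.00865% of all features passed, which is 1 feature, and 0 of 55 members. At an unadjusted p under 0.05, 4.09% of features passed and again 0 of 55 members. The groups did not overlap in 0.796% of features and in 0 of 55 members.

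Higher and lower values were about equally frequent among the members. The difference, KO minus control, was positive in 27 of 55 members (49.1%) and in 47.6% of all features, with a median of -0.019 for members and -0.022 for all features. For 40 of 55 members (72.7%) the 95% interval of the difference lay within 1 log2 unit of 0, against 56.8% of all features. The large subunit had 18 of 33 genes with a positive difference and a median of 0.024, and the small subunit had 9 of 22 and a median of -0.043. These directions depended on scaling and on KO 4: without KO 4, 46 of 55 members were positive with a median of 0.11. Of the 28 negative differences 22 turned positive, and of the 27 positive ones 3 turned negative. Over all features 49% were positive without KO 4, with a median of -0.0064. With arrays centred on their medians in place of quantile normalization 2 of 55 were positive with a median of -0.43, where the median of all features had itself moved to -0.26.

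**Figure D1:**
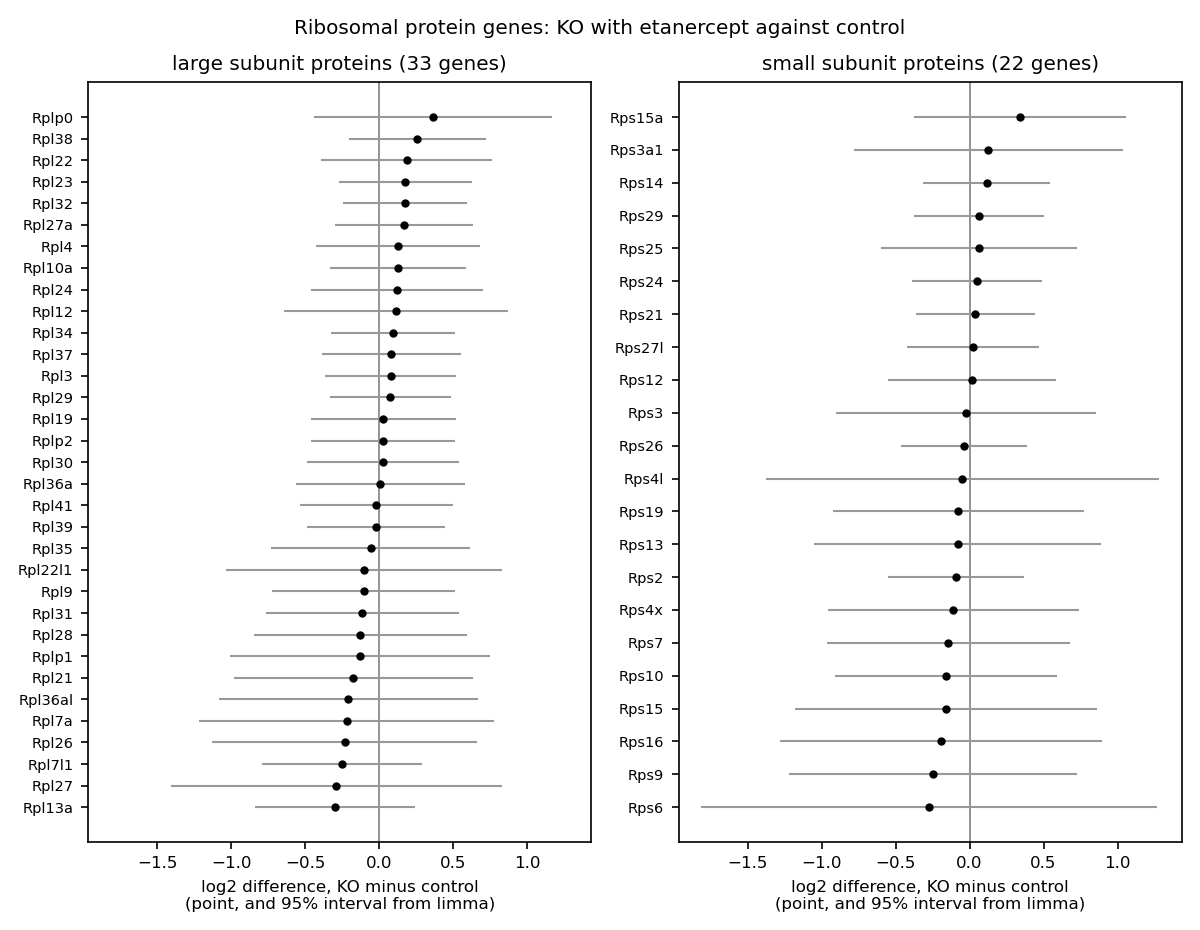
Log2 difference (x axis, KO minus control) for each of the 33 large subunit and 22 small subunit genes, with the point estimate and its 95% interval from limma over 4 control and 5 KO arrays. Every interval includes 0, the highest difference is that of Rplp0 and the lowest that of Rpl13a; which side of 0 a gene falls on depended on the array KO 4 and on the scaling.

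The genes with the smallest p among the higher ones were led by Rpl38, a large subunit protein needed for the translation of Hox messenger RNAs in mouse embryos. Its log2 signal was 14.07, 13.54, 13.69 and 13.65 in controls 1 to 4 and 13.77, 13.98, 13.83, 14.19 and 14.21 in KO 1 to KO 5. All KO livers were above controls 2, 3 and 4, and control 1 lay among them. The difference was 0.26 ± 0.21 (SE; limma adjusted p = 0.931). Rps15a, a small subunit protein, was at 6.91, 5.63, 5.89 and 6.66 in the controls and at 6.99, 6.45, 5.94, 6.85 and 6.83 in the KO livers, a difference of 0.34 ± 0.33 (SE). Controls 2 and 3 were the lowest livers and the other 2 controls lay among the KO livers. The Rps15a probe was detected on all 9 arrays but was dim, with a signal of 101 to 258 before normalization. It did not reach a detection p under 0.01 on all arrays, and its difference was 0.16 without background correction. The remaining members with the smallest p in this direction, Rplp0, Rpl32, Rpl23, Rpl27a, Rpl22 and Rpl10a, had differences between 0.13 (Rpl10a) and 0.37 (Rplp0).

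On the lower side, Rpl13a had the lowest difference. This large subunit protein is also known in human cells for leaving the ribosome to silence inflammatory messenger RNAs. Its log2 signal was 8.46, 9.09, 8.27 and 9.03 in the controls and 8.14, 8.62, 8.61, 8.21 and 8.49 in the KO livers. Controls 2 and 4 were above all KO livers, and controls 1 and 3 lay inside their range. The difference was -0.30 ± 0.25 (SE; limma adjusted p = 0.931). The others of this direction, Rpl7l1, Rpl26, Rpl27, Rps9, Rpl36al, Rpl7a and Rps10, had differences from -0.29 (Rpl27) to -0.16 (Rps10). Without KO 4, Rpl26, Rpl27, Rps9, Rpl36al and Rpl7a were positive, at 0.073, 0.0081, 0.11, 0.080 and 0.15, while Rpl7l1 was at -0.10, Rps10 at -0.011 and Rpl13a at -0.24.

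**Figure D2:**
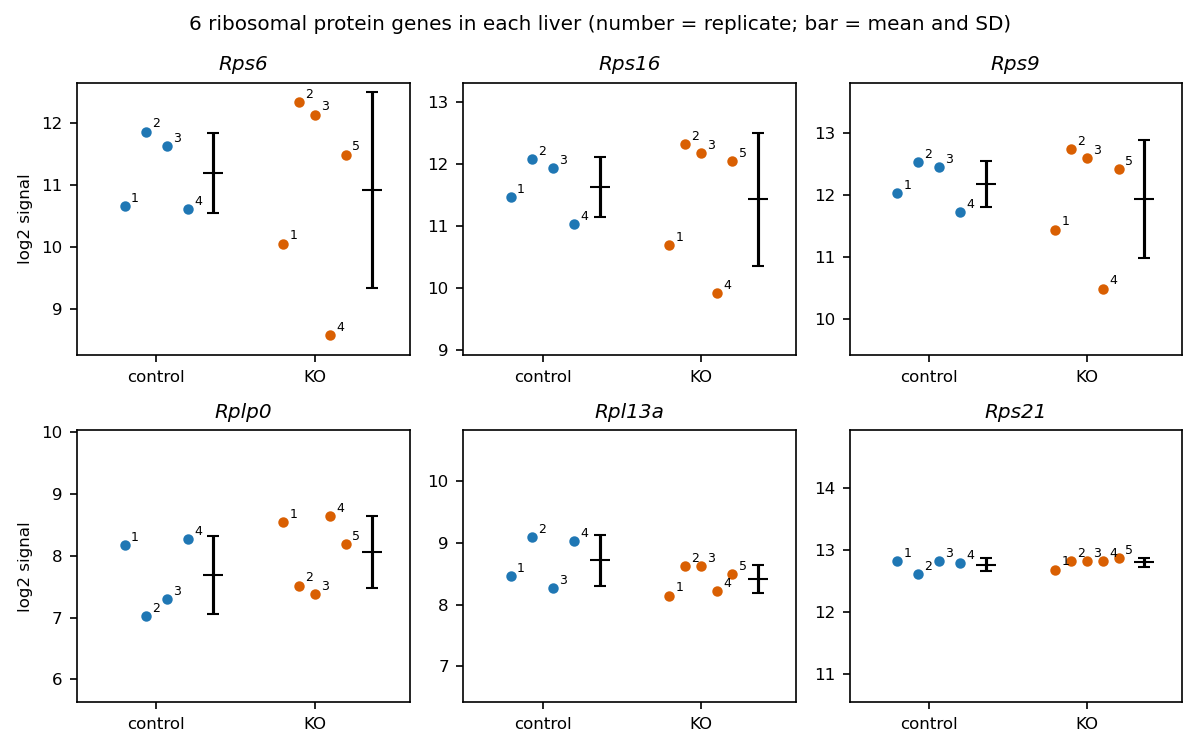
Log2 signal (y axis, the same span of 4.4 log2 units in each panel, different origins) of 6 ribosomal protein genes in each of 4 control and 5 KO livers; numbers are replicates and bars are the mean and SD. Rps6, Rps16 and Rps9 spread widely in both groups with KO 4 and KO 1 lowest, Rplp0 has KO 4 and KO 1 highest, and Rps21 varies little.

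Many members shared a spread that ran across both groups. Rps6, the small subunit protein phosphorylated by S6 kinase below mTORC1, had the widest range of all members with KO 4 and the second widest, after Rps4l, without it. Its log2 signal was 10.67, 11.87, 11.63 and 10.62 in controls 1 to 4 and 10.06, 12.34, 12.14, 8.57 and 11.49 in KO 1 to KO 5. Controls 2 and 3 and KO 2, 3 and 5 were high, controls 1 and 4 and KO 1 were low, and KO 4 was lowest. From the lowest to the highest liver the span was 3.77 log2 units, or 13.6-fold, and it was 2.29 without KO 4. The group means were 11.20 ± 0.65 (SD, n = 4) and 10.92 ± 1.59 (SD, n = 5), with a difference of -0.27 ± 0.70 (SE; limma adjusted p = 0.955), and of 0.31 ± 0.49 (SE) without KO 4.

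The same order of livers recurred in proteins of the decoding site and the mRNA entry channel. Rps9, at the entry channel, was at 12.03, 12.53, 12.45 and 11.73 in the controls and at 11.44, 12.75, 12.59, 10.49 and 12.41 in the KO livers. Rps3, beside it, was at 11.59, 11.91, 11.85 and 11.24 in the controls and at 11.18, 12.26, 12.14, 10.33 and 12.19 in the KO livers. With the probes used, KO 4 was lowest in both genes, KO 1 and control 4 came next, and KO 2 was highest. Rps15, whose tail reaches the decoding site, ranged over 2.38 log2 units (1.55 without KO 4) with the same 3 livers at the bottom. Rps2, at the entry channel too, spanned 0.63. With the probes used, all 4 of these genes had negative differences, from -0.25 (Rps9) to -0.025 (Rps3), with a median of -0.13 that was 0.15 without KO 4. Another tested probe of Rps3, detected on all 9 arrays, gave a difference of 0.25 ± 0.51 (SE). It had KO 1 lowest at 8.21, KO 4 at 9.76 and KO 3 highest at 10.52, so order and sign of Rps3 depended on the probe.

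Other small subunit genes followed. Rps16 was at 11.46, 12.08, 11.94 and 11.03 in the controls and at 10.70, 12.32, 12.18, 9.91 and 12.05 in the KO livers, a span of 5.31-fold, or 3.09-fold without KO 4. Rps19, the gene most often mutated in Diamond-Blackfan anaemia, was at 11.94, 12.35, 12.13 and 11.86 in the controls and at 11.53, 12.81, 12.42, 10.77 and 12.43 in the KO livers. In both, KO 4 and KO 1 were the lowest and KO 2 the highest liver, and the 4 controls lay between. The difference of Rps19 was -0.076 ± 0.39 (SE; limma adjusted p = 0.978), and 0.23 ± 0.28 without KO 4.

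This order was close to that of the arrays by their number of detected probes. The 4 arrays with the fewest detected probes were KO 4 (9493), KO 1 (13926), control 4 (14699) and control 1 (14868), and these were also the 4 lowest arrays for Rps6. Across the 9 arrays the level of Rps6 had a Pearson r of 0.933 and a Spearman rho of 0.933 with that number, and r was 0.892 without KO 4 and KO 1, the arrays farthest from its median. For Rpl28 the ranks were the same (rho = 1), for Rps3 rho was 0.967 and for Rps7 0.9. A rho of at least 0.8 was found in 22 of 55 members (40%) and in 8.72% of all features, and a rho of -0.8 or lower in 0 members and in 8.84% of features. These are descriptions over 9 arrays: level and number come from the same hybridization, and no test was made. With that number as a covariate in the fit, an alternative added after seeing the data, 45 of 55 members had a positive difference, the median was 0.082 and 0 members passed. Over all features 49% were positive in that fit, with a median of -0.0076. The cause of the shared spread was not tested.

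**Figure D3:**
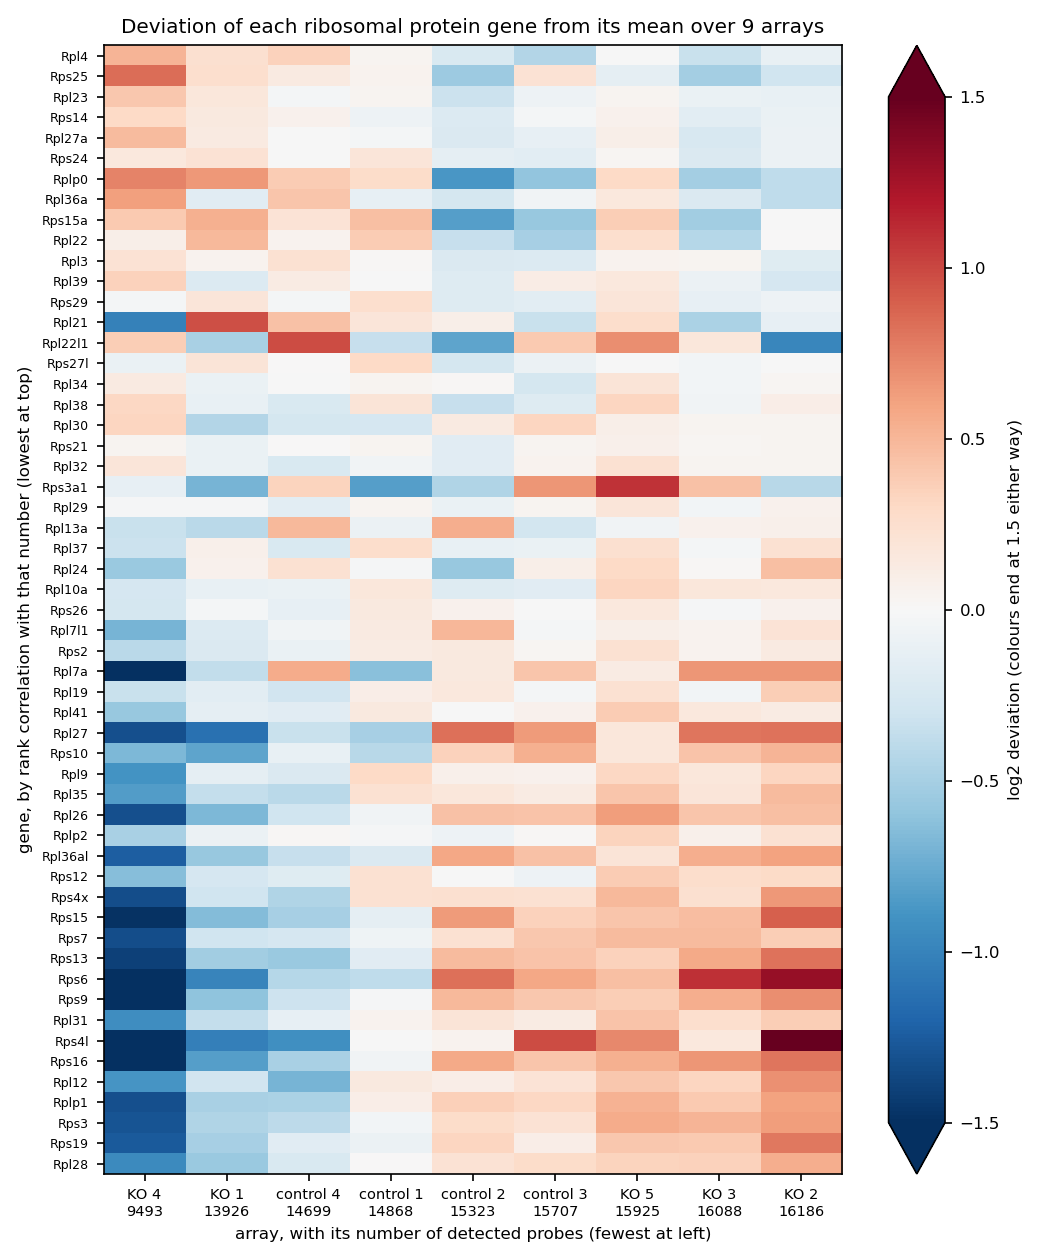
Log2 deviation of each of the 55 genes (rows) from its mean over 9 arrays (columns, ordered by number of detected probes, 9493 to 16186); blue is below and red above the mean, and rows are ordered by their rank correlation with that number. Genes in the lower rows of the map are blue on KO 4, KO 1 and control 4 and red on KO 2, KO 3 and KO 5, with Rpl28 at rho = 1 in the last row; the top rows, from Rpl4 down, are reddest on KO 4.

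A smaller set ran the other way, with KO 4 the highest liver. Rps25, a small subunit protein used in initiation on internal ribosome entry sites, was at 10.96, 10.37, 11.12 and 11.04 in the controls and at 11.15, 10.60, 10.40, 11.74 and 10.77 in the KO livers. Rpl4, which lines the exit tunnel, was at 10.29, 10.03, 9.82 and 10.60 in the controls and at 10.49, 10.14, 9.92, 10.77 and 10.25 in the KO livers. For both, KO 4 was highest, and 1 of controls 2 and 3 was the lowest liver. Their rho with the number of detected probes was -0.733 and -0.767. KO 4 was the lowest array for 30 of 55 members, a larger share than the 34.8% of features. It was the highest for 8 of 55, a smaller share than the 25.5% of features. KO 2 was the highest array for 18 of 55 members and KO 5 for 14 of 55. Both are larger shares than the 14.1% and 6.22% of features.

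Summed up per liver, the median deviation of the 55 members from their means was 0.036, 0.059, 0.067 and -0.12 in controls 1 to 4. In KO 1 to KO 5 it was -0.21, 0.16, 0.067, -0.40 and 0.26. The KO group thus held both the lowest livers and the highest, and the controls lay between them. Part of this was also seen in the initiation factors listed below. Their median was -0.35 in KO 4, 0.26 in KO 2 and 0.33 in KO 5, but 0.053 in KO 1 and 0.22 in control 1. Other genes with a TOP tract gave -0.073 in KO 4, 0.062 in KO 2 and 0.21 in KO 5. The small subunit alone gave -0.66 in KO 4 and 0.37 in KO 5, and the large subunit -0.33 and 0.24. The SD was larger in the KO group for 41 of 55 members (74.5%) and for 73.7% of all features, and without KO 4 for 58.2% and 56.8%.

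Many members varied little. The range over the 9 arrays was under 1 log2 unit for 25 members (45.5%, against 23.8% of all features) and above 2 for 9 (16.4%, against 26.4%). Rps21 was the narrowest, at 12.82, 12.61, 12.82 and 12.79 in the controls and at 12.68, 12.82, 12.81, 12.82 and 12.86 in the KO livers. Its 9 values lay within 0.25 log2 units, and its difference was 0.039 ± 0.18 (SE), with a 95% interval from -0.36 to 0.44. Rpl29, Rps26, Rps24, Rps29, Rpl3, Rpl32 and Rpl34 each spanned 0.34 to 0.46. These spans are those of the probes used. Dimmer tested probes spread more: 3.68 log2 units for Rpl29, and 1.65 and 1.92 for Rps24, or 2.62, 0.64 and 1.64 without KO 4. The shares above compare probes of unlike signal: 5 of 55 members and 5455 of 11559 features had a mean log2 signal under 7. There the median SD within groups was 0.72 for members and 0.52 for features. It was 0.37 and 0.48 from 7 to 9, and 0.50 and 0.40 from 9 to 11. From 11 to 13 it was 0.52 for 21 members and 0.33 for 812 features, and above 13 it was 0.21 for 16 members and 0.25 for 232 features.

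The stalk of the large subunit, which recruits and activates the translation factors that use GTP, was measured in full. Its base, Rplp0, was at 8.17, 7.02, 7.30 and 8.27 in the controls and at 8.55, 7.52, 7.38, 8.64 and 8.19 in the KO livers. Rplp1, 1 of the acidic proteins it carries, was at 13.34, 13.59, 13.54 and 12.76 in the controls and at 12.76, 13.84, 13.63, 11.92 and 13.76 in the KO livers. KO 4 was the highest liver for Rplp0 and the lowest for Rplp1, and KO 1 was likewise second highest and second lowest, while KO 5 was on the high side for both. Their differences were 0.37 ± 0.37 and -0.13 ± 0.40 (SE), or 0.22 and 0.19 without KO 4, and their rho with the number of detected probes was -0.667 and 0.967. Rplp2, the partner of Rplp1, spanned 0.83 log2 units, with KO 4 at 12.38, the other 8 livers between 12.78 and 13.21, and a difference of 0.026 ± 0.22 (SE).

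Of 8 genes of the exit tunnel with a probe, 7 were tested, 3 with a positive difference, and 0 passed. Their differences lay between -0.23 (Rpl26) and 0.19 (Rpl22). Rpl26, which also binds p53 messenger RNA, was at 11.36, 11.85, 11.85 and 11.11 in the controls and at 10.73, 11.86, 11.82, 10.09 and 12.04 in the KO livers. KO 4 and KO 1 were lowest, as for Rps6, and the difference without KO 4 was 0.073. Rpl31 spanned 1.36 log2 units and Rpl39 0.60.

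Ribosomal proteins that bind MDM2 when ribosome assembly fails, and so stabilize p53, were tested in 10 of 15 cases, 5 with a positive difference and 0 past the threshold. Rpl23 was at 13.87, 13.51, 13.76 and 13.80 in the controls and at 14.00, 13.72, 13.74, 14.24 and 13.87 in the KO livers. KO 4 was its highest liver and control 2 its lowest. Its difference was 0.18 ± 0.21 (SE), and 0.097 without KO 4. Other tested probes of Rpl23 gave 0.48 ± 0.28 and 0.039 ± 0.23 (SE), the latter with KO 4 lowest, at 8.38. Rps7, in the same list, was at 10.37, 10.66, 10.84 and 10.18 in the controls and at 10.13, 10.80, 10.91, 9.10 and 10.90 in the KO livers, with a difference of -0.14 ± 0.37 (SE) and KO 4 lowest. Without KO 4 the difference of Rps7 was 0.17. Rpl5 and Rpl11, the main partners of MDM2, and Rps27a were not analysed here.

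Among 17 genes mutated in Diamond-Blackfan anaemia, a human failure of red cell production, 9 were tested, 2 with a positive difference, and 0 passed. The lowest difference was that of Rpl27, at 8.95, 10.28, 10.09 and 9.12 in the controls and at 8.33, 10.26, 10.26, 8.14 and 9.62 in the KO livers. Control 2 was its highest liver, and controls 1 and 4 lay with KO 1 and KO 4 at the low end. The difference was -0.29 ± 0.51 (SE), and 0.0081 without KO 4. The median of the 9 genes was -0.11, and 0.073 without KO 4. Haemoglobin transcripts, from red cells in the tissue, were also lowest in KO 4: Hbb-bt was at 12.80, 13.99, 13.39 and 12.17 in the controls and at 13.00, 13.37, 13.71, 11.87 and 13.48 in the KO livers, with a difference of -0.0023 ± 0.44 (SE) and of 0.30 without KO 4, and its part in the spread was not tested.

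Paralogs of ribosomal proteins were tested in 5 cases, 1 with a positive difference. Rpl22, and Rpl22l1, which Rpl22 is known to repress in mouse cells, had differences of 0.19 ± 0.26 and -0.099 ± 0.42 (SE). Rpl22l1 was detected on 6 of 9 arrays, the fewest of all tested members, and was at 5.30, 4.85, 6.04 and 6.62 in the controls and at 5.17, 4.67, 5.82, 6.02 and 6.34 in the KO livers. Neither group was higher throughout. Rps27l, a p53 target, spanned 0.57 log2 units, with control 1 highest and control 2 lowest, and differed by 0.023 ± 0.20 (SE). Rps4l was not detected on KO 4, where its value of 5.01 is not above background. Over the other 8 livers it spanned 2.60 log2 units, or 6.07-fold, from 5.53 in KO 1 to 8.13 in KO 2, with the controls between 5.64 and 7.53. Rpl36al spanned 1.85 and Rpl7l1, a factor of large subunit assembly, 1.19.

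Several probes per gene were tested for 15 members, and in 9 of them the probes gave differences of opposite sign. Among these 9, the widest gaps were 0.54 log2 units (Rps13), 0.50 (Rpl29), 0.49 (Rpl27a), 0.31 (Rpl7l1) and 0.28 (Rpl38). Probes of 1 gene also differed in how far they spread over the same RNA samples. The brighter probe of Rps2 lay within 1.55-fold over the 9 livers, and the other at 10.98, 12.76, 12.38 and 11.24 in the controls and at 10.49, 13.06, 12.76, 8.70 and 12.17 in the KO livers, a span of 20.5-fold, or 5.95-fold without KO 4. That second probe had the order of livers seen for Rps6, with KO 4 and KO 1 lowest and KO 2 highest. In Rpl29 the brighter probe spanned 1.26-fold, and the other, detected on 8 of 9 arrays, spanned 6.15-fold without KO 4. Both probes of Rps9 spread widely, over 4.78-fold and 6.78-fold, or 2.47-fold and 3.76-fold without KO 4. For Rps2 and Rpl29 the choice of probe thus set whether the gene showed the wide spread, and the cause was not tested.

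**Figure D4:**
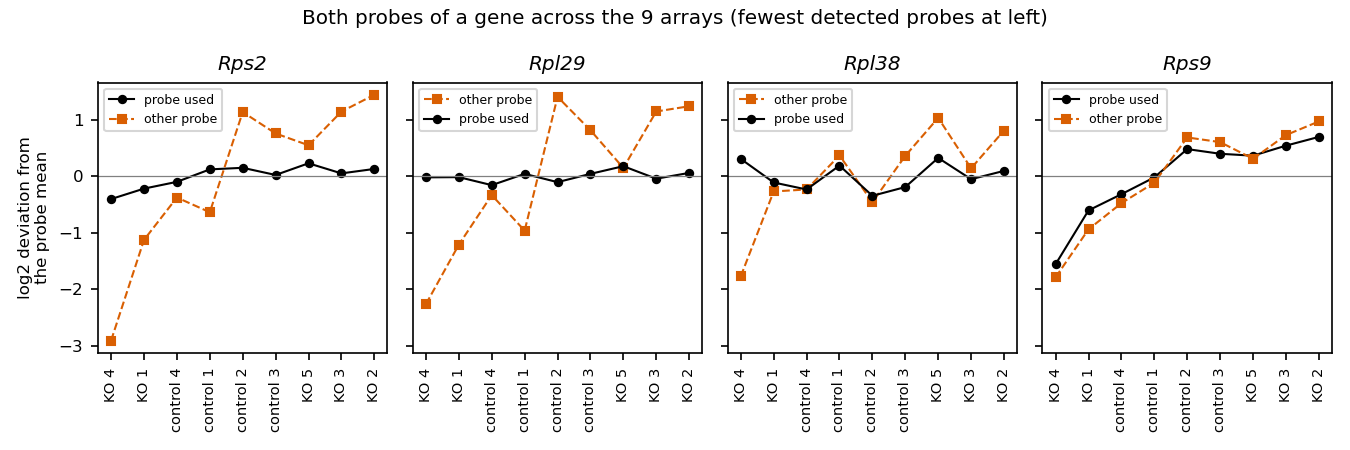
Log2 deviation from the probe's own mean (y axis) on 9 arrays ordered by number of detected probes (x axis), for both tested probes of 4 genes; the black line is the probe used and the orange dashed line the other. For Rps2 and Rpl29 the probe used is nearly flat and the other climbs from KO 4, for Rpl38 the probes part most on KO 4, and for Rps9 both climb.

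The 9 genes with a probe that were not tested were Rpl14, Rpl17, Rpl39l, Rpl3l, Rpl6, Rps20, Rps23, Rps23rg1 and Rpsa. Their signals lay between 81.4 and 160 before normalization, and none was detected on more than 3 arrays, so these probes give no level for the gene. Rpl14, Rpl6, Rpl17, Rps20, Rps23 and Rpsa encode proteins that every ribosome carries, and their probes were not above background in these livers all the same. The least often detected of the tested members were Rpl22l1 (6 arrays) and Rpl21, Rpl7a and Rps4l (8 arrays each), and 51 members were detected on all 9.

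Other parts of the translation machinery were read from lists. Of 20 tested genes whose messenger RNAs also carry a TOP tract, 13 had a positive difference, with a median of 0.14 (0.23 without KO 4), and 0 passed. Tpt1, a growth-related TOP transcript, had a difference of 0.56 ± 0.26 (SE) and Eef2, the translocation factor, 0.42 ± 0.34 (SE; limma adjusted p = 0.931 for both). Both probes were detected on all 9 arrays but were dim. Their log2 signals were 4.97 to 6.49 for Tpt1 and 6.34 to 7.96 for Eef2. Cct4 and Hnrnpa1 were at 0.25 and 0.37. The 23 initiation factors had 14 positive differences, a median of 0.044 (0.15 without KO 4) and 0 past the threshold. Eif6, which keeps the large subunit from joining too early, was at 12.34, 10.62, 11.04 and 10.66 in the controls and at 12.04, 12.07, 11.44, 12.10 and 12.33 in the KO livers. Control 1 was its highest liver and the other 3 controls were below all KO livers, with a difference of 0.83 ± 0.36 (SE; limma adjusted p = 0.931). Eif2b3 and Eif5 were at 0.38 and 0.25. Eif2b1, detected on 8 arrays, was at -0.70 with KO 4 at 4.65 and the other 8 livers between 6.83 and 8.26, and at -0.076 without KO 4.

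Regulators around mTORC1, the complex that controls TOP translation, were tested in 11 cases, 7 with a positive difference and 0 past the threshold. Deptor, an inhibitor of the complex, was at 6.83, 8.38, 7.48 and 7.91 in the controls and at 6.50, 6.40, 7.92, 4.51 and 6.44 in the KO livers. KO 3 was inside the control range and the other 4 KO livers were below it, KO 4 farthest, with a difference of -1.30 ± 0.57 (SE; limma adjusted p = 0.931). Deptor was detected on 8 arrays, and without KO 4 the difference was -0.84. Eif4ebp1, the translational repressor that mTORC1 phosphorylates, was at 11.18, 9.38, 10.23 and 9.82 in the controls and at 11.08, 11.31, 10.02, 11.36 and 11.41 in the KO livers. Control 1 lay with the high KO livers and KO 3 with the controls, and the difference was 0.88 ± 0.40 (SE; limma adjusted p = 0.931). Ddit4, which restrains mTORC1 under stress, and Mtor itself were at 0.80 ± 0.49 and 0.63 ± 0.41 (SE).

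Markers of other cell types were read beside these values. All 11 tested Kupffer cell and macrophage markers were positive, with a median of 0.53 and 0 past the threshold, and their summed signal was 3800 to 6510 in the controls and 6990 to 8940 in the KO livers. Marco, a macrophage scavenger receptor, was at 6.29, 7.67, 7.72 and 7.10 in the controls and at 8.04, 7.76, 8.48, 8.23 and 8.98 in the KO livers, all above the controls. Clec4f, the Kupffer cell lectin, lay between 9.40 and 10.02 in the controls and between 9.71 and 10.38 in the KO livers, and S100a8, of neutrophils, between 8.02 and 9.31 and between 8.05 and 9.93. Acta2, the smooth muscle actin of activated stellate cells, was the 1 feature past the threshold, at 11.34, 11.62, 11.29, 11.65 and 11.56 in the KO livers, all above the 4 controls, a difference of 1.68 ± 0.20 (SE; limma adjusted p = 0.0421). The other stellate cell and fibroblast markers did not pass, 5 of 10 in the list being positive. Lrat was at -1.01 and was detected on 5 arrays. KO 1, at 6.32, was its highest liver, and KO 2 to KO 5 lay between 4.45 and 4.79. Of 11 endothelial markers 6 were positive and 0 passed, with a median of 0.049. The highest were Lyve1 at 1.29 and Cdh5 at 0.76, and the lowest were Clec4g at -0.44 and Tek at -0.43. Hepatocyte markers had a median of -0.081, with Alb detected on all 9 arrays. Cd3e was detected on 4 arrays, and none of the 3 B cell markers with a probe was tested, Cd79a not being analysed here. The part of these cells in the levels of ribosomal protein genes was not tested.

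Within surgery days the livers can be set side by side on 3 days, without a test. On day 1, KO 1 minus control 4 gave a median over the members of -0.070, with 23 of 55 positive. Day 2, KO 4 minus control 2, gave -0.49 and 23 positive, and day 5, KO 3 minus control 1, gave 0.017 and 29 positive. The pair that holds KO 4 stood apart from the others. With surgery day as a block, the group difference rests on these 3 days alone, since days 3 and 4 each hold 1 group. That fit leaves 3 residual degrees of freedom, which limits what can pass. Its median was -0.14, 21 members were positive and 0 passed, and no feature passed where 1 did without the block. Arrays were assigned to slides by the code in their column headers, slide 1 with controls 1 and 2 and KO 1 and KO 2. On slide 1 alone the median was -0.022 and on slide 2 alone, which holds KO 4, -0.0034. But 19 of 55 members had opposite signs on the slides, among them Rpl7a at 0.39 and -0.75. The Rpl7a probe was dim and was not detected on KO 4.

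The authors' own normalized values gave another count. Fitted the same way, 15 of 55 members (27.3%) and 48% of all features were positive. At an unadjusted p under 0.05 (limma), 11 of 55 members and 33.5% of features passed. Past the threshold were 1071 of 11559 features and 1 of 55 members: Rpl13a, at -0.43 ± 0.11 (SE; limma adjusted p = 0.0444). In those values Rpl13a was at 9.01, 9.42, 9.17 and 9.34 in the controls and at 8.72, 8.90, 9.06, 8.64 and 8.72 in the KO livers. Control 1 lay below KO 3, and every other control was above every KO liver. Differences between days 1, 2, 4 and 5 were absent from them: with both group and day fitted, the mean absolute coefficient against day 1 did not exceed 3.64e-06 on days 2, 4 and 5, and on day 3, which holds control 3 alone, it was 0.0512, so a fit without day counts degrees of freedom that were already spent. With day as a block in the fit, 0 features and 0 members passed and 16 members were positive.

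**Figure D5:**
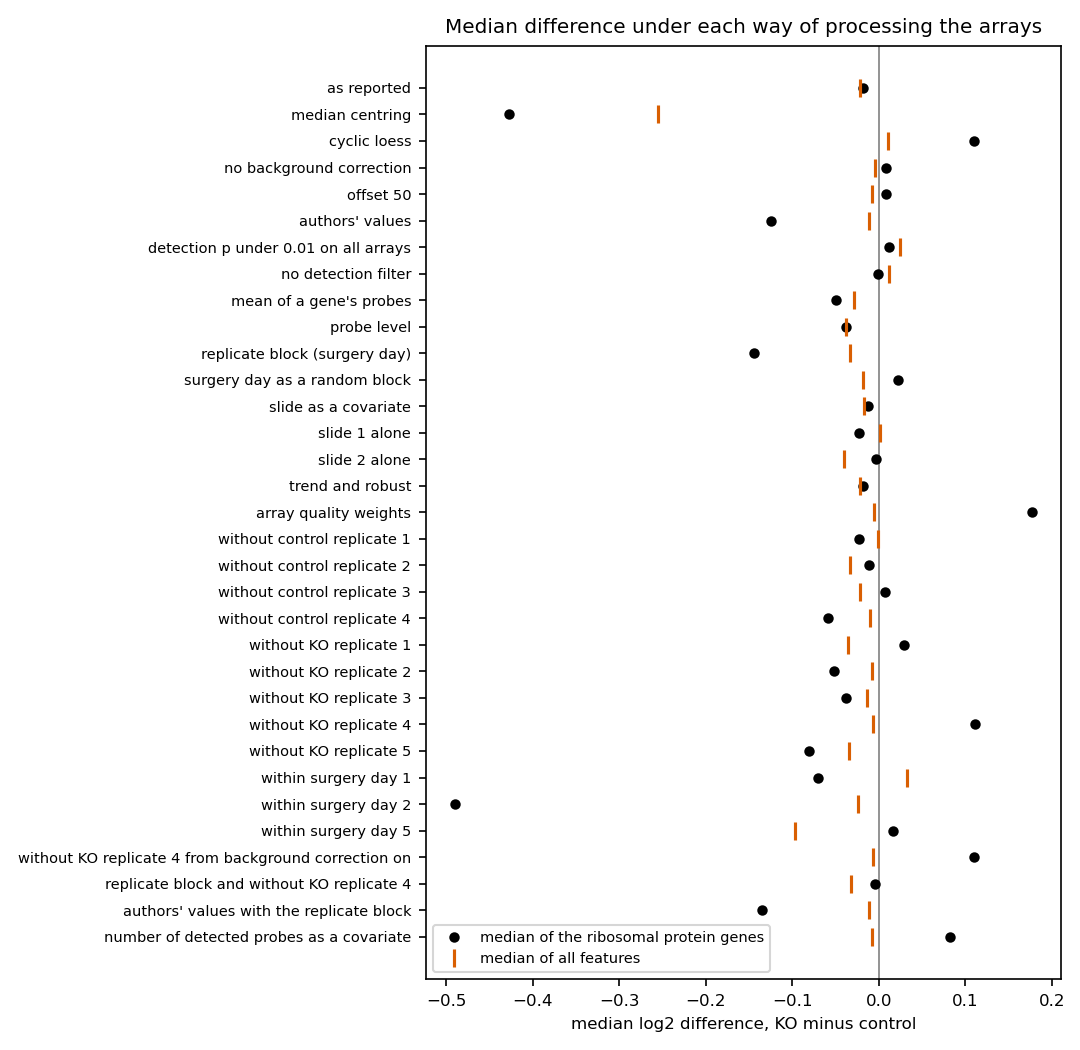
Median log2 difference (x axis, KO minus control) of the ribosomal protein genes (black points) and of all features (orange ticks) under each way of processing or leaving out arrays (rows). The reported value is -0.019; the points farthest left are median centring (-0.43) and the pair of surgery day 2 (-0.49), and the farthest right is the fit with array weights (0.18).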

How the data were processed

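Total RNA of 9 livers was hybridized to Illumina mouse bead arrays. Per the file headers, the deposited file holds a mean bead signal, an intensity on a linear scale with no step between arrays, with its detection p-value, on 45281 probes per array. The second deposited table holds values normalized by the authors, on a log2 scale to judge by their range, and served as an alternative. The submitters' processing notes name Partek, whose version is not given in the sources used here. Column medians of 6.77 to 6.80 are nearly equal, and the step that equalized them is not recorded there. No value column was left unused.

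Signals were background-corrected and quantile-normalized with limma (neqc, offset 16, negative controls inferred from the detection p-values) and log2-transformed. Kept were the 15687 probes detected (p under 0.05) on 4 arrays or more, and the probe with the highest mean stood for its gene, which left 11559 features. Symbols came from the platform annotation. Groups were compared over all features with limma's two-sided moderated test (lmFit, eBayes), without covariates, and Benjamini-Hochberg adjustment, with a threshold of 0.05. Differences are KO minus control; intervals are at 95%. Precision is limited by the number of arrays. The fit was tested on simulated data. The tools were R 4.3.3, limma 3.58.1, Python 3.11.15 and matplotlib 3.10.9.

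The member genes and all lists were chosen with earlier results of these data known. Named were the 8 members with the smallest p in each direction, all tested stalk proteins and paralogs, Rps6 and Rps19 whatever they show, members whose probes differ in sign and up to 4 genes of each other translation list with the smallest p. Members shown for their spread, such as Rps16, Rps3, Rps25, Rpl4 and Rps21, were chosen after their values were seen. Replicates were numbered in order of deposit and pair no samples. Surgery day pairs livers of both groups, as the labels give it: same-day livers' departures from their group means correlated across all features at 0.168 on day 1, -0.408 on day 2 and -0.565 on day 5, and at 0.344 for the KO livers of day 4. A comparison of protein sequences was planned and not made. Alternatives were other normalizations, filters, probe choices, blocks, weights and arrays left out. Added after seeing the data were the fits without KO 4 from background correction on, with the day block and without KO 4, with that block on the values normalized by the authors, and with the number of detected probes as a covariate.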

Additional observations from a re-analysis of the deposited data

Results flagged for a closer look

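In 6 of 112 sets of values, the lowest liver of a group stood apart from the rest of its group by Dixon's ratio (gap to the next value over the range). Chance alone flags about 1 in 20 sets, or 5.6 of 112. In the controls, control 4 was lowest for Rps4x (ratio 0.973, 12.09 against 12.77 to 12.79), Rpl12 (0.883, 11.41 against 12.21 to 12.32) and Rpl35 (0.837, 11.90 against 12.44 to 12.54). Control 3 was lowest for Rpl34 (0.843) and control 2 for Rps21 (0.832). In the KO livers, KO 1 was lowest for Rps21 (0.737), within a span of 0.25 log2 units over all 9 livers.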

How the results depend on the processing

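In no fit of the re-normalized signals did a ribosomal protein gene pass, whatever the normalization, filter, probe choice, block or array left out; in the authors' values 1 did, and 0 with the day block. The count of all features past the threshold, 1 as reported, was 0 with median centring, with the mean of a gene's probes, at probe level, with the replicate block of surgery day, with slide as a covariate, and on slide 1 or slide 2 alone. It was 10 with array weights (KO 4 weighted 0.142, the highest array 4.92), 1071 in the authors' values, 4 with the number of detected probes as a covariate, 4 without KO 4 from background correction on, and 0 with the replicate block and without KO 4 or with the block in the authors' values. Leaving out 1 array at a time gave 0 to 4 features, 22 to 46 members with a positive difference (27 as reported; 46 is without KO 4) and a median from -0.081 to 0.11. Members with a positive difference numbered 2 with median centring, 48 with array weights, 15 in the authors' values (16 with the block), 46 without KO 4 from background correction on and 45 with the number of detected probes as a covariate. In the same order, positive differences made up 22.7%, 49.3%, 48% (47.9% with the block), 49% and 49% of all features. The median moved beyond the SD between arrays (0.215) to -0.43 with median centring and to -0.49 within surgery day 2. The block changed no other call. Of 709 values of the 23 named members under alternatives, 652 lay within 1 SD of the reported value and 119 had the other sign. The cause of these shifts was not tested. With 9 arrays, the median SE of a member was 0.265 log2 units, and dim probes give no level.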
